A study of Mus musculus with 5 samples.

Results

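ATRX binding was examined at 30 mouse genes of GABA and glycine signalling, chosen by name and function and not by a measured value. Earlier results of these data were known when the list was chosen. They are 30 of the 21887 protein-coding genes that the GRCm38 RefSeq table holds on the chromosomes compared, and all 30 names were found in it. The list holds 12 subunit genes of the GABA-A receptor, the rho subunits included, 2 of the GABA-B receptor, 3 genes for making GABA and loading it into vesicles, 2 chloride transporters, the scaffold gene Gphn, 4 glycine receptor subunits and 6 genes that mark classes of interneuron. It does not hold every subunit of these families.

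GABA is the main inhibitory transmitter of the forebrain. GABA-A receptors are chloride channels built from several subunits, many of whose genes sit side by side in clusters, whereas GABA-B receptors are dimers coupled to G proteins. Gephyrin, the product of Gphn, holds GABA-A and glycine receptors at the postsynaptic membrane. During maturation neurons shift from the chloride importer encoded by Slc12a2 (NKCC1) to the exporter encoded by Slc12a5 (KCC2), which makes GABA inhibitory. ATRX is a chromatin remodeller that, with its partner DAXX, places a histone variant into silent chromatin and into repeats able to form G-quadruplexes.

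Primary neurons from C57BL6/J embryos were given lentivirus on day 5 in vitro, and DNA bound by ATRX was pulled down with an antibody and sequenced (ChIP-seq). There were 4 ChIP libraries, 1 per group: mCherry at day 14 in vitro (DIV14, here the control), TBC1D3 and a construct labelled MICAL1-M1 at the same day, and mCherry at day 7 (DIV7), the young neurons of the design. An input library was not analysed here. TBC1D3 is a hominoid-specific gene, MICAL1 encodes an enzyme that oxidises actin, and mCherry is a fluorescent protein. All 4 groups carried a lentivirus; the promoter that drives the transgene is not given in the labels, nor is what M1 stands for. The peaks of the MICAL1-M1 list carry names that begin with M2, so the library's name rests on its sample record. The labels do not say how many animals or cultures a library holds, and with 1 library per group no value below has a replicate error and no test between conditions was possible. Intervals are at 95% and cover counting error only.

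The deposited peak lists hold between 96670 peaks (control) and 213982 (DIV7), each down to an uncorrected p of 0.05. A q, the p after correction over the list, no higher than 0.05 was reached by 4.19% of control peaks and by 0.205% to 0.463% of those in the other lists. The background pileup that the peaks imply was 3.56 fragments in the control, 2.61 in MICAL1-M1, 1.28 at DIV7 and 1.22 with TBC1D3, so the last 2 lists rest on the fewest fragments. Peaks of ATRX do not measure expression, so the neuronal label could not be checked against marker transcripts. Of 6 neuronal marker genes, between 1 (TBC1D3) and 4 (control and MICAL1-M1) had a summit at a gene end, of 6 astrocyte genes between 1 and 3, and of 6 microglial genes 0 in the control and in MICAL1-M1 and 2 in each of the others. Of all genes, 42.3% had one in the control, 33.4% with TBC1D3, 38.7% in MICAL1-M1 and 33.2% at DIV7. With 6 genes per cell type, every exact binomial interval takes in the share of all genes. The libraries come from whole cultures, so a site bound in a few interneurons and a site bound weakly in many cells cannot be told apart.

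The promoters of 26 of the 30 genes are in the RefSeq sequence table (GRCm38.p6), which gives the transcription start and strand; Gabrd, Slc12a2, Glra1 and Calb2 are not in it. The 250 bases before the start are shown for the 5 members with the highest control fold at a start, and for Sst, which had no summit in the gene or within 1 kb of it in any library. CG dinucleotides, the sites of DNA methylation, are in capitals.
Gabrb2 (chr11:42420190-42420439, plus strand): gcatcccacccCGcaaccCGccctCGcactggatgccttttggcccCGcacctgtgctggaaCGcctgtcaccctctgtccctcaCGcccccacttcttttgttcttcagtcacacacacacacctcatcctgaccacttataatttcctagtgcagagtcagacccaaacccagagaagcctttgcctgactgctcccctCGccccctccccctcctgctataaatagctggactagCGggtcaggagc
Glrb (chr3:80913661-80913910, minus strand): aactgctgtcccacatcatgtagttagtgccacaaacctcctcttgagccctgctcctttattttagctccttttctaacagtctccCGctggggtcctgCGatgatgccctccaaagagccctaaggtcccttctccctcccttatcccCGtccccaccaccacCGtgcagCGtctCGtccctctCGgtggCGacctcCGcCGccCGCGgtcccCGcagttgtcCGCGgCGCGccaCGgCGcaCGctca
Gabbr1 (chr17:37045716-37045965, plus strand): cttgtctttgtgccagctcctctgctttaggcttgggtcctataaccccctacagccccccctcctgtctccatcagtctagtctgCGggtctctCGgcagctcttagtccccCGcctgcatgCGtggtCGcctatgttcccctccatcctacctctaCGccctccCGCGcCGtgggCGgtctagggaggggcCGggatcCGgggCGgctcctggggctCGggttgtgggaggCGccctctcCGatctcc
Reln (chr5:22344706-22344955, minus strand): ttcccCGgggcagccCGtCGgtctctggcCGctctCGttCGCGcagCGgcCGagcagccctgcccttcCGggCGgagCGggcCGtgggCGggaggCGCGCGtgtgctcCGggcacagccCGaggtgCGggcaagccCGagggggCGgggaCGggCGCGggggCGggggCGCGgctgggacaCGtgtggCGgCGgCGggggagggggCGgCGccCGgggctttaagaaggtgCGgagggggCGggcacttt
Gabrg3 (chr7:57387216-57387465, minus strand): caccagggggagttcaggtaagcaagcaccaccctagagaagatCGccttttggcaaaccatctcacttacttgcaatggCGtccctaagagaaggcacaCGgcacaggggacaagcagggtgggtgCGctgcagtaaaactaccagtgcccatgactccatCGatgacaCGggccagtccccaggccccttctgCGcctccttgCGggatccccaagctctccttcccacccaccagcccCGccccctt
Sst (chr16:23890845-23891094, minus strand): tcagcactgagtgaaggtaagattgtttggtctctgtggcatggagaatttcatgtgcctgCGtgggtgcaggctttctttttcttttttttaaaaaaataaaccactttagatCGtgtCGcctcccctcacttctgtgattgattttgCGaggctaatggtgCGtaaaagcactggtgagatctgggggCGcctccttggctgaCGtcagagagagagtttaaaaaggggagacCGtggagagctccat

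The promoters differ widely in these sites. The stretches of Reln and Glrb hold 37 and 20 CG, Gabbr1 holds 16, Gabrg3 holds 9, and Gabrb2 and Sst hold 8 each. A control peak covered all 250 bases at Gabrb2, Glrb, Reln and Gabrg3, and 115 of them at Gabbr1. Each of these 5 stretches holds a match to the G-quadruplex motif, 4 runs of GGG spaced by 1 to 7 bases on either strand, which can overlap a CG; that of Sst holds none. Over all promoters of protein-coding genes the motif was present in 19.7%, and over the 32 listed member promoters in 8.

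ATRX summits at these genes lay more often at the start of transcription than at the other end, most clearly in the control and in MICAL1-M1. In the control, 17 of 26 members had a summit within 1 kb of a listed start (65.4%, exact binomial interval 44.3 to 82.8), against 43.8% of the 17492 protein-coding genes with a listed start. In MICAL1-M1 it was 16 of 26 (61.5%, 40.6 to 79.8), against 38.6% of all genes. With TBC1D3 it was 11 of 26 (42.3%, 23.4 to 63.1) and at DIV7 8 of 26 (30.8%, 14.3 to 51.8), against 27.1% of all genes in each. The far end of the gene was occupied in 2 of 26 members in the control (5.8% of all genes), 1 in MICAL1-M1 (7.82%), 3 with TBC1D3 (13.1%) and 5 at DIV7 (12.7%). The lower limits of the control and MICAL1-M1 shares thus lay just above the level of all genes, while the interval of each of the other 2 libraries takes in that level.

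**Figure D1:**
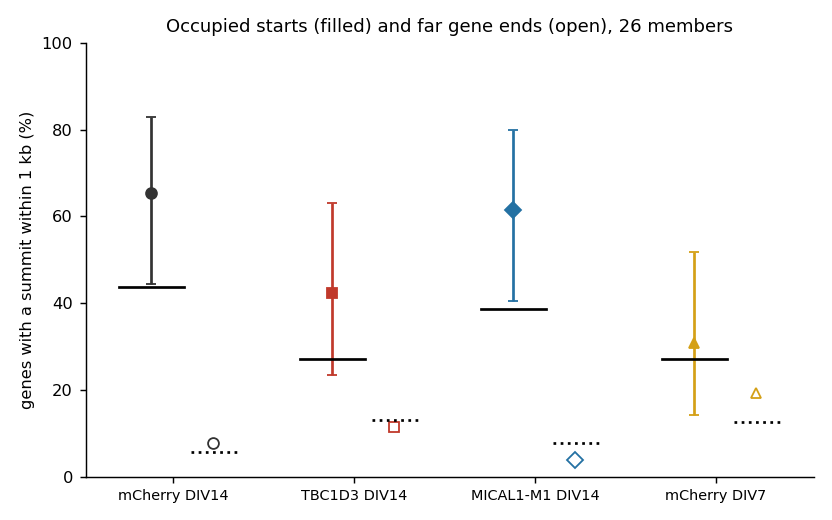
Share of the 26 members with a listed strand that had an ATRX summit within 1 kb of a transcription start (filled symbols, with exact binomial 95% intervals) or of the far gene end (open symbols), by library; the vertical axis is in percent. Solid and dotted lines give the same shares over 17492 protein-coding genes, and the intervals of the control and MICAL1-M1, around 65.4% and 61.5%, begin just above their lines.

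By the broader rule of a summit within 1 kb of either end of the annotated gene, 14 of all 30 members were occupied in the control (42.3% of all genes), 9 with TBC1D3 (33.4%), 14 in MICAL1-M1 (38.7%) and 13 at DIV7 (33.2%). These shares lie close to those of all genes. The starts of Gabrb2, Gad2, Gphn, Gabra5 and Slc12a5 that were occupied in the control lie inside the annotated gene, and their summits are out of reach of that rule. At starts, the strongest peak of each occupied member had a median fold of 2.60 in the control and 2.36 in MICAL1-M1, against 2.61 and 2.49 over all occupied genes of those libraries. With TBC1D3 the median was 2.25 against 2.26, and at DIV7 it was 2.63 against 2.19. Folds are the authors' values and are not compared between lists. The summits behind them held 8 to 20 fragments in the control, 6 to 12 in MICAL1-M1, 4 to 9 at DIV7 and 3 to 6 with TBC1D3, so those of the last 2 libraries rest on few fragments.

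Among the GABA-A receptor genes the highest control fold at a start belonged to Gabrb2, which encodes the beta 2 subunit found in many adult receptors. Its peak (chr11:42419762-42420703) had its summit 145 bp downstream of a listed start, with 3.54-fold enrichment, 20 fragments and a q of 0.00231. MICAL1-M1 had a 2.77-fold peak 55 bp downstream of the same start. No summit lay within 1 kb of a listed Gabrb2 start with TBC1D3 or at DIV7, though both had one at the annotated gene's beginning (2.38-fold with TBC1D3 and 2.51-fold at DIV7).

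Gabrg3 and Gabra5, neighbours on chromosome 7 that encode the gamma 3 and alpha 5 subunits, had a start summit in all 4 libraries. At Gabrg3 the control peak was 2.85-fold with 12 fragments, and those of TBC1D3, MICAL1-M1 and the DIV7 library were 2.25-fold, 1.71-fold and 2.78-fold. At Gabra5 the folds were 2.19 in the control, 2.25 with TBC1D3, 2.49 in MICAL1-M1 and 3.06 at DIV7. The Gabra5 summit of the control lay 5 bp upstream of the start, while those of TBC1D3 and DIV7 lay 721 and 905 bp downstream of it. None of these 8 peaks reached a q of 0.05.

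On chromosome 5, Gabrg1, Gabra2, Gabra4 and Gabrb1 form a cluster, and all 4 starts were occupied in the control. Gabra4 and Gabrb1 lie on opposite strands and overlap at their starts, which are 387 bp apart. The control's 2.53-fold summit there counts for both genes, and no other library had a summit within 1 kb of the Gabra4 start. Gabrb1 has another listed start inside the gene and within the span of the long non-coding RNA gene Gm38562, where the control had a 2.69-fold peak with 14 fragments, MICAL1-M1 a 2.13-fold and TBC1D3 a 1.77-fold peak. Gabra2, whose alpha 2 subunit is prominent in the young forebrain, had a start summit in the control (2.63-fold) and in MICAL1-M1 (2.27-fold) and none in the other 2 libraries. Gabrg1 had one in the control (2.49-fold), in MICAL1-M1 (2.49-fold) and with TBC1D3 (2.26-fold), over a promoter with only 1 CG.

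Of the remaining GABA-A genes, Gabra3, on chromosome X, and Gabra6, a subunit gene of cerebellar granule cells, had no gene-end or start summit in any library. The same holds for Gabrr1 and Gabrr2, rho subunit genes best known from the retina, whose bodies held no summit in the control or in MICAL1-M1. Gabrd, the delta subunit gene of extrasynaptic receptors, had 1 gene-end peak in the control (2.19-fold with 10 fragments) and none elsewhere.

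Both GABA-B receptor genes were occupied at their starts in all 4 libraries, as were Gabra5, Gabrg3 and Reln. These 5 of 26 members compare with 5.87% of all genes with a listed start, and 7 of 26 had a start summit in no library (32.4% of all genes). By gene ends the 4 members occupied in every library were Gabrg3, Gabbr1, Gabbr2 and Reln (6.24% of all genes), and 10 were occupied in none (27%). At Gabbr1 the control peak was 3.19-fold with 15 fragments and a q of 0.0470, its summit 264 bp upstream of the start. The Gabbr1 folds were 2.13 with TBC1D3, 2.37 in MICAL1-M1 and 2.63 at DIV7, with summits 965, 546 and 715 bp downstream. At Gabbr2 the folds were 2.19 in the control, 2.71 with TBC1D3, 2.43 in MICAL1-M1 and 2.34 at DIV7. MICAL1-M1 had another Gabbr1 summit upstream of the start (1.71-fold), on the same side as the control's.

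No peak at the 3 genes for making and loading GABA reached a q of 0.05. Gad1, encoding the enzyme GAD67, had start summits in the control (1.97-fold) and in MICAL1-M1 (2.20-fold). Gad2, encoding GAD65, had them in the control (2.69-fold), with TBC1D3 (2.63-fold) and at DIV7 (2.63-fold). In MICAL1-M1 Gad2 had no start summit, but 2.77-fold and 2.22-fold peaks lay at its annotated beginning. Slc32a1, the vesicular GABA transporter gene, had a start summit with TBC1D3 (1.76-fold on 3 fragments) and in MICAL1-M1 (2.11-fold on 8), and at DIV7 a 3.50-fold peak at its annotated beginning.

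The highest control fold at any gene end of the 30 genes was at Slc12a2, the chloride importer gene. The peak (chr18:57877663-57878271) had its summit at -488 bp from the lower coordinate of the gene, outside it, with 3.94-fold enrichment, 17 fragments and a q of 0.00229. At that end the DIV7 library had a 1.75-fold peak of 3 fragments, and TBC1D3 and MICAL1-M1 had none. Slc12a5, the exporter gene, has 2 listed starts. Summits at the inner start were found in the control (2.60-fold), with TBC1D3 (2.77-fold) and at DIV7 (2.14-fold). At the outer start TBC1D3 (2.23-fold) and DIV7 (2.27-fold) had a summit and the control had none. None of these Slc12a5 peaks had a q of 0.05 or less. In MICAL1-M1 its only gene-end summit was at the far end (1.94-fold), and a 2.41-fold peak lay in the gene body.

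Among the glycine receptor genes, Glrb, whose beta subunit binds gephyrin, had a 3.23-fold control peak across its start (chr3:80913228-80914648, 17 fragments, q of 0.0189). MICAL1-M1 had a 1.60-fold peak there, and TBC1D3 and the DIV7 library had none. Glra3 had start summits in the control (1.83-fold), in MICAL1-M1 (1.94-fold) and at DIV7 (2.63-fold). Glra1, the adult alpha subunit gene of the spinal cord, had gene-end peaks with TBC1D3 (2.26-fold) and at DIV7 (3.07-fold), and Glra2, on chromosome X, had none in any library.

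Of the interneuron markers, Reln, a secreted protein of Cajal-Retzius cells and of a class of interneurons, was occupied in every library. Its start peak was 3.07-fold in the control, 2.71-fold with TBC1D3, 3.60-fold in MICAL1-M1 and 2.17-fold at DIV7. The neuropeptide gene Npy had start summits in the control (2.27-fold) and in MICAL1-M1 (2.76-fold). Pvalb, the parvalbumin gene, had them at 1 of its 2 listed starts with TBC1D3 (2.04-fold) and in MICAL1-M1 (2.35-fold). Sst, Vip and Calb2, which encode somatostatin, vasoactive intestinal peptide and calretinin, had no gene-end summit in any library, and Vip and Sst no start summit.

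**Figure D2:**
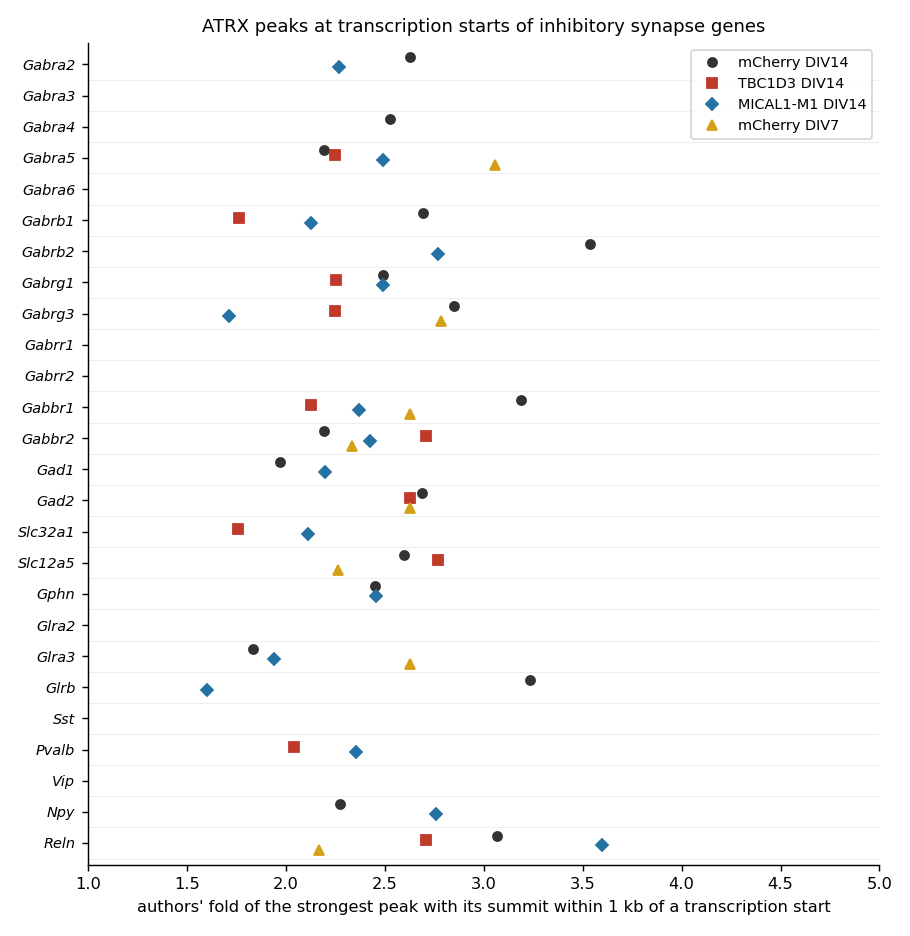
The authors' fold (horizontal axis) of the strongest peak with its summit within 1 kb of a listed transcription start, for each of the 26 members with a listed start (rows) and each library (symbols); a missing symbol means no such peak. Control peaks of Gabrb2, Glrb, Gabbr1 and Reln reach 3.07-fold to 3.54-fold, and 7 rows, Gabra3, Gabra6, Gabrr1, Gabrr2, Glra2, Sst and Vip, are empty.

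Occupied starts held more CG, as they did over the whole genome. The median number of CG in the 250 bases before the start was 14.5 in the 20 member promoters with a control summit and 5.5 in the 12 without one, against 17 and 4 over all promoters. Of the 11 member promoters with at least 16 CG, 10 were occupied in the control, 9 in MICAL1-M1, 5 with TBC1D3 and 4 at DIV7. Over all 7247 promoters with as many CG these shares were 71.2%, 61.2%, 36.3% and 35.8%. Of the 5 member promoters with at most 2 CG, 1 was occupied in the control, that of Gabrg1, against 5.35% of all such promoters. The G-quadruplex motif was present in 7 of the 20 member promoters with a control summit and in 1 of the 12 without, against 27% and 14.3% of all promoters. Promoters of 1 gene share their surroundings and are not independent, and a match to the motif does not show a structure.

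Set against the control, more members lacked a start summit than acquired one with TBC1D3 and at DIV7. Here a member counts as lost when only the control has a summit within 1 kb of any of its listed starts. It counts as gained in the reverse case, and single starts of 1 gene are not told apart. The words record presence and absence with no test, and the 3 comparisons share the control library. With TBC1D3, 8 of the 26 members were lost (27.5% of all genes) and 2 gained (10.8%). The 8 lost were Gabra2, Gabra4, Gabrb2, Gad1, Gphn, Glra3, Glrb and Npy, and the 2 gained Slc32a1 and Pvalb. In MICAL1-M1, 3 were lost (15.2%), Gabra4, Gad2 and Slc12a5, and 2 gained (9.97%), again Slc32a1 and Pvalb. At DIV7, 9 were lost (27.7%) and 0 gained (11% of all genes). The 9 were Gabra2, Gabra4, Gabrb1, Gabrb2, Gabrg1, Gad1, Gphn, Glrb and Npy. The shares of members lost are near those of all genes.

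By the gene-end rule the counts of gained and lost members were closer to each other. With TBC1D3 4 members were gained (15.6% of all genes) and 9 lost (24.4%). In MICAL1-M1 4 were gained (11.6%) and 4 lost (15.2%), and at DIV7 6 were gained (15.7%) and 7 lost (24.7%). The 6 gained at DIV7 were Gabra5, Gabrb2, Gad2, Slc32a1, Slc12a5 and Glra1. Of these, Gabra5, Gad2 and Slc12a5 had a control summit at a start inside the gene, as did Gabrb2.

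Peaks that kept a q no higher than 0.05 were few. In the control 6 of 30 members had one in the gene or within 1 kb of it (13.1% of all genes): Gabbr1, Slc12a2, Glrb, Gabrb1, Gabrb2 and Gabrg3. At gene ends there were 3, Gabbr1, Slc12a2 and Glrb (8.47%), and 0 with TBC1D3 (0.146%), in MICAL1-M1 (1.33%) and at DIV7 (0.228%). The Gabrb1 peak lay 170.9 kb into the gene (3.29-fold) and that of Gabrg3 2.80 kb inside its beginning (3.29-fold). Besides its start peak Gabrb2 had a 3.72-fold peak 48.9 kb into the gene. In MICAL1-M1 the only such member was Gabra4 (2.4% of all genes), with a 3.88-fold peak of 13 fragments 69.4 kb from the gene's lower coordinate. At DIV7 there were 2 (0.681%), Gphn and Gabrb1, the latter with a 4.38-fold peak of 9 fragments 12.9 kb before the far end. With TBC1D3 the only one was Gphn (0.553%).

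Among the TBC1D3 peaks at the 30 genes, the one in Gphn stood far above every other by fold and q. It lay inside the gene, 124.4 kb downstream of the listed start (chr12:78350869-78351172), was 304 bp wide and had 8.72-fold enrichment on 37 fragments over a local background of 3.36, with a q of 3.01e-22. By fold it was the 4th of 199059 TBC1D3 peaks, and by q the 72nd. At DIV7 a peak at the same place, 269 bp wide, had 29 fragments over a local background of 9.47, giving 2.87-fold and a q of 0.00227. Both local backgrounds were well above the background of their lists, 1.22 fragments with TBC1D3 and 1.28 at DIV7. The control and MICAL1-M1 had no peak there. The gene table gives no exons, so whether the site is exonic or intronic was not determined, and repeats at the site were not tested. At the Gphn start itself the control (2.45-fold) and MICAL1-M1 (2.46-fold) had summits, and TBC1D3 and the DIV7 library had none.

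**Figure D3:**
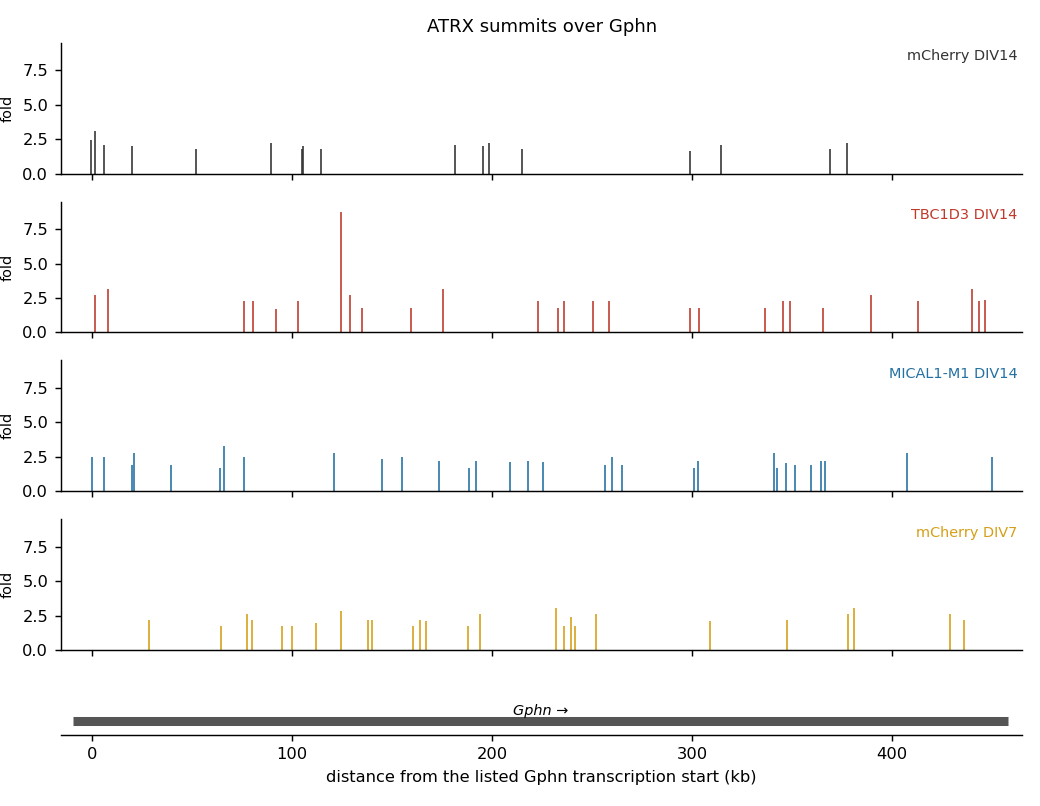
Each line is an ATRX summit in or within 1 kb of Gphn, placed by its distance in kb from the listed transcription start (horizontal axis), with its height the authors' fold (vertical axis, 1 panel per library); the bar is the gene span. The TBC1D3 line at 124.4 kb reaches 8.72-fold and the DIV7 line at the same place 2.87-fold, and the other 2 libraries have none there.

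Over whole gene bodies the members as a group held summits at a density near that of other genes, while single members lay well above or below it. The 30 genes span 4323 kb and held 240 summits in the control, 315 with TBC1D3, 302 in MICAL1-M1 and 322 at DIV7. Per 100 kb this is 5.55 (exact Poisson interval 4.87 to 6.30), 7.29 (6.50 to 8.14), 6.99 (6.22 to 7.82) and 7.45 (6.66 to 8.31). All protein-coding genes held 5.10, 7.92, 6.78 and 8.15 per 100 kb in the same libraries, each within the interval of the members. Over the 28 members on autosomes the control density was 6.13 (5.38 to 6.96), just above the 5.36 of all genes on the same chromosomes. Gabra3 and Glra2 on chromosome X together held 1 summit in the control and 7, 7 and 10 in the others over 423 kb, and few summits lay in genes of that chromosome in general (0.489 per 100 kb in the control).

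Gabrb2, Gabbr2, Gabrb1 and Gabra2 were the members of at least 100 kb with the most summits per length in the control. Relative to all genes of the same library, Gabrb2 had 2.48 times the density in the control (27 summits), 1.66 times in MICAL1-M1 (24), 0.889 times with TBC1D3 (15) and 0.633 times at DIV7 (11). Its intervals were 1.64 to 3.61 in the control and 0.316 to 1.13 at DIV7. Gabrb2 is described here for its high control count, and the genes it is set against have a minimum of control summits, so both choices favour a fall from the control. Over the 1726 genes of at least 100 kb with at least 5 control summits, 1.10% moved further down at DIV7 than Gabrb2 did and 3.77% with TBC1D3.

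Gabrb1 had 2.07 times the density of all genes in the control (52 summits), 1.86 times in MICAL1-M1 (62), 1.16 times with TBC1D3 (45) and 1.10 times at DIV7 (44). Gabra2 held 14 summits in each of these 2 libraries, 9 with TBC1D3 and 7 at DIV7, which is 2.00 times the density of all genes in the control and 0.625 times at DIV7. For both genes the control and MICAL1-M1 counts were the higher ones, and for Gabra2 the intervals of the 4 libraries overlap. Gabbr2 had 2.20 times in the control, 1.43 in MICAL1-M1, 1.04 with TBC1D3 and 1.60 at DIV7, on 27 to 43 summits. Gabrb1, Gabra2 and Gabbr2 are also described here for their high control density, and this choice favours a fall from the control. Over the same 1726 genes, 16.9% moved further down at DIV7 than Gabrb1 did, 3.13% than Gabra2 did and 35.5% than Gabbr2 did.

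Gabrg3, the longest member at 670.8 kb, went the other way. It held 24 summits in the control (0.701 times the density of all genes, 0.449 to 1.04), 62 with TBC1D3 (1.17 times), 40 in MICAL1-M1 (0.879 times) and 74 at DIV7 (1.35 times, 1.06 to 1.70). The control and DIV7 intervals do not meet. Among the 1726 genes, 91.1% lay below Gabrg3 in the difference of DIV7 from the control and 86.6% in that of TBC1D3. Within 1 Mb either side of Gabrg3 the relative densities were 0.705 in the control, 0.853 with TBC1D3, 0.870 in MICAL1-M1 and 1.17 at DIV7. These flanks take in sequence between genes but are divided by the density of all gene bodies. Over all autosomes the density outside genes was 3.10 against 5.31 inside in the control, and 8.84 against 8.32 at DIV7. The higher flank value at DIV7 is therefore not particular to Gabrg3. Around Gabrb2 the flank values were 0.833, 0.941, 0.980 and 1.05 in the same order of libraries. They were lowest in the control and highest at DIV7, as was the density outside genes over all autosomes. Inside Gabrb2 the control was highest and DIV7 lowest. Reln held 15, 34, 24 and 32 summits in the control, TBC1D3, MICAL1-M1 and DIV7 libraries (0.639, 0.933, 0.769 and 0.853 times), and its intervals overlap.

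**Figure D4:**
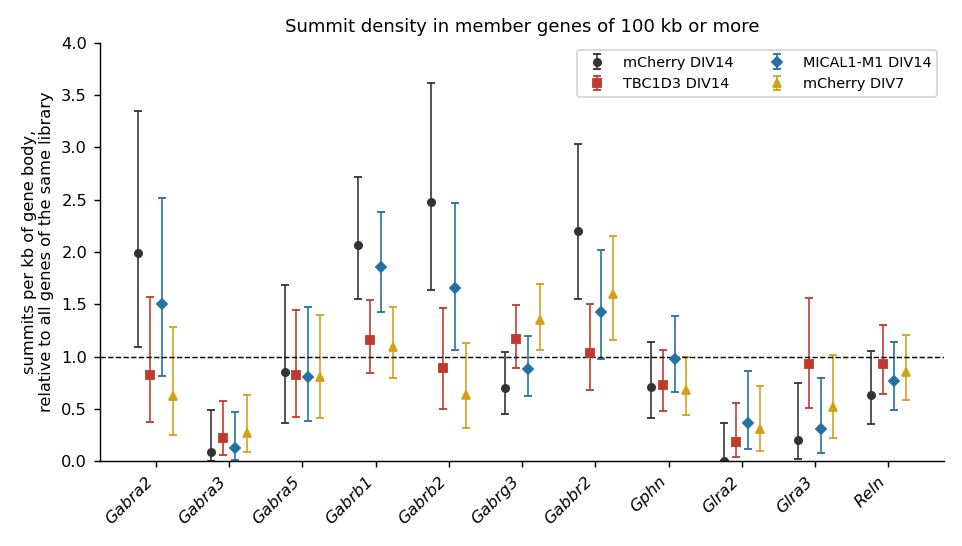
Summit density in the bodies of the 11 members of at least 100 kb, relative to the density over all protein-coding genes of the same library (vertical axis; the dashed line is a value of 1), with exact Poisson 95% intervals; symbols are libraries. Gabrb2 falls from 2.48 in the control to 0.633 at DIV7, while Gabrg3 goes from 0.701 to 1.35.

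The chromosome 5 cluster shows a contrast between genes and the stretches between them in the control and in MICAL1-M1. From the lower end of Gabrg1 to the upper end of Gabrb1 (chr5:70751047-72149572) the 4 genes cover 808.9 kb and the rest 589.7 kb, in which the gene Cox7b2 lies. In the control the genes held 9.52 summits per 100 kb (7.51 to 11.9) and the rest 3.56 (2.20 to 5.44). In MICAL1-M1 it was 12.1 (9.84 to 14.8) against 5.09 (3.43 to 7.26). With TBC1D3 it was 9.02 (7.07 to 11.3) against 7.46, with intervals that overlap, and at DIV7 7.54 (5.77 to 9.69) against 9.67 (7.32 to 12.5). Summits were thus denser inside the receptor genes than in the rest in the control and in MICAL1-M1. No such difference exceeded the counting error in the other 2 libraries. Over all autosomes every protein-coding gene was counted as inside, whereas in the cluster Cox7b2 was counted with the rest. The autosome values were 5.31 inside and 3.10 outside in the control and 7.03 and 4.99 in MICAL1-M1. They were 8.09 and 8.14 with TBC1D3, and 8.32 and 8.84 at DIV7. In the control and MICAL1-M1 the inside value was the higher one in the cluster and over all autosomes, and at DIV7 the lower one in both. With TBC1D3 it was the higher one in the cluster, with overlapping intervals, and slightly the lower one over all autosomes.

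**Figure D5:**
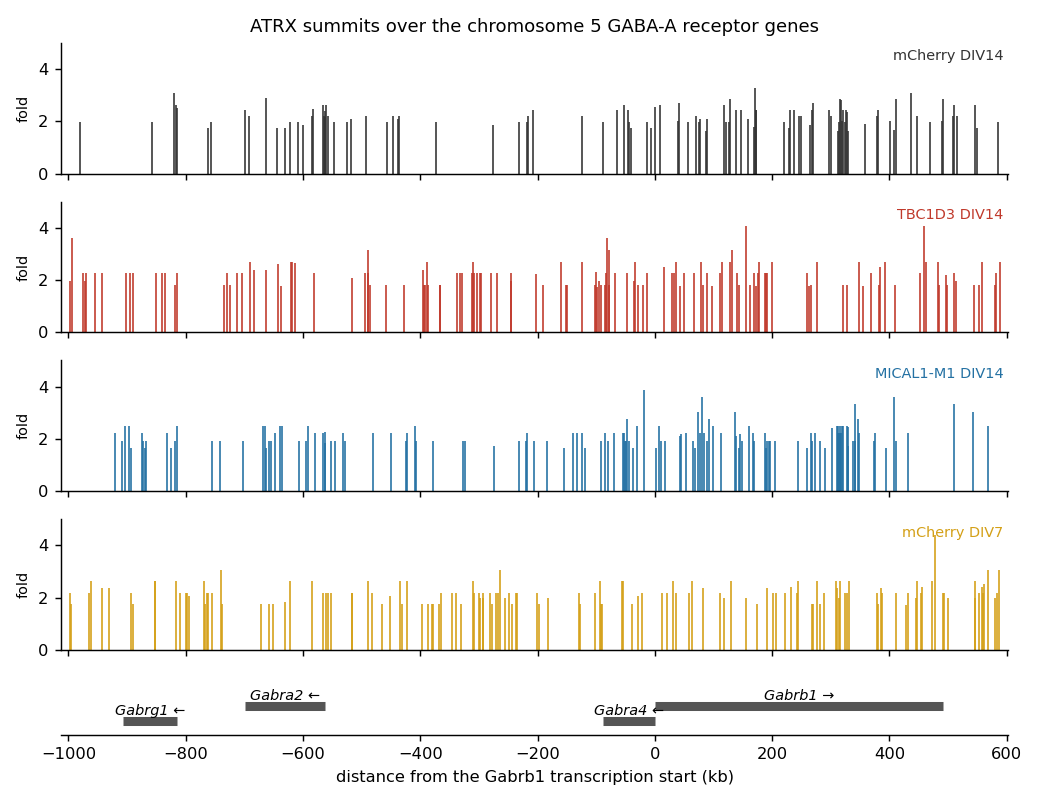
ATRX summits across the chromosome 5 receptor cluster, each line a summit at its distance in kb from the Gabrb1 start (horizontal axis) with its height the authors' fold (vertical axis, 1 panel per library); bars are the 4 receptor genes with arrows for the direction of transcription, and other genes are not drawn. In the control 77 of the 98 summits between the outer gene ends lie in the 4 genes, and at DIV7 61 of 118.

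Few merged sites in these genes held a peak of every list. Peaks that share at least 1 bp were merged, also in chains, so the peaks of a site need not all overlap. This gave 1039 sites in or within 1 kb of the 30 genes, of which 896 (86.2%) came from 1 library and 5 (0.481%) from all 4. Over all protein-coding genes these shares were 85.1% and 0.729%. Of the 5 sites, 4 lay at the starts of Gabra5, Gabrg3, Gabbr2 and Reln, and the 5th lay 154.5 kb from the nearest Gabrb2 start. Among the 4 at starts, only that of Reln had bases covered by a peak of all 4 libraries. Of the control's 248 sites at member genes, 22.2% held a MICAL1-M1 peak, 11.7% a TBC1D3 peak and 10.5% a DIV7 peak, which is 17.8%, 8.95% and 7.78% of the sites of those lists. Over all genes the shares of control sites were 26.4%, 15.1% and 14.2%.

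Another 38 genes of the inhibitory synapse were also listed by function, with earlier results of these data known. They had gene-end summits in 25 cases in the control (65.8%, 48.6 to 80.4, against 42.3% of all genes) and in 22 with TBC1D3 (57.9%, 40.8 to 73.7, against 33.4%). The count was 21 in MICAL1-M1 (55.3%, 38.3 to 71.4, against 38.7%) and 14 at DIV7 (36.8%, 21.8 to 54.0, against 33.2%). They cover further receptor subunits and their auxiliary proteins, GABA and glycine transporters, postsynaptic adhesion proteins and interneuron genes. Gene-end peaks that kept a q no higher than 0.05 were found in the control at Igsf9b (3.51-fold) and Mdga1 (3.37-fold), which encode adhesion proteins of the immunoglobulin family, and at Clptm1 (3.29-fold), which holds GABA-A receptors back from the surface. Abat (3.01-fold), whose enzyme breaks GABA down, and Gabarap (2.85-fold), whose product binds GABA-A receptors, had the next highest control folds. In MICAL1-M1 Slitrk3, an adhesion gene of inhibitory synapses, had a 4.15-fold peak, and at DIV7 Kctd16, an auxiliary subunit gene of GABA-B receptors, a 4.38-fold one. Of all genes, 8.47% in the control, 1.33% in MICAL1-M1 and 0.228% at DIV7 had a gene-end peak with a q no higher than 0.05. The 11 AMPA and NMDA receptor subunit genes, the excitatory counterparts, were occupied at gene ends in 7 cases in the control (42.3% of all genes), 5 with TBC1D3 (33.4%), 6 in MICAL1-M1 (38.7%) and 6 at DIV7 (33.2%), and with so few genes no difference from the 30 inhibitory genes could be told.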

How the data were processed

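ATRX ChIP-seq peak lists of 4 libraries, 1 per group, were used. The submitters' processing notes name the aligner Bowtie (1.3.0), the peak caller MACS (1.4.2), and also SAMtools (1.9) and ChIPseeker (1.26.2), with no settings; the genome build is not given in the sources used here, and coordinates were read on GRCm38 RefSeq. As deposited by the authors, each peak has a score (10 times its −log10 p, cut to a whole number), a fold enrichment over local background, and −log10 p and −log10 q values. Lists were called per library, not pooled. Members and lists were chosen with earlier results of these data known. Values were printed for members with gene-end summits in at least 3 libraries, with a q of at most 0.05 or with the most body summits, and others more briefly; other pathway genes were named for such a q or for the 5 highest control folds.

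A gene was occupied when a summit lay within 1 kb of either end, or, for 26 members, of a listed start. Fragment pileups were recovered from fold and p, with at least 99.97% of peaks matching a whole number within 0.001 in log10 p. Exact binomial and Poisson intervals (SciPy 1.17.1) cover counting error only. Changes in density used genes of at least 100 kb with at least 5 control summits and 0.5 summits added. Steps were tested on simulated data. With 1 library per group no p-value between conditions was computed.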

Additional observations from a re-analysis of the deposited data

How the results depend on the processing

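No paired analysis was possible because each group has 1 library. Of the values recomputed with other windows, thresholds and list sizes, 35 stayed near the reported ones and 27 moved; the cause was not tested, apart from the smaller lists under the stricter rules. With only peaks of q no higher than 0.05, members with a gene-end summit numbered 3 in the control (8.47% of all genes) and 0 with TBC1D3 (0.146%), in MICAL1-M1 (1.33%) and at DIV7 (0.228%). Gained members then numbered 0 with TBC1D3 (0.105%), in MICAL1-M1 (0.864%) and at DIV7 (0.174%), and lost members 3 with TBC1D3 (8.43%) and 3 at DIV7 (8.41%). Under the same rule the body density relative to all genes was 0.434 in the control, 1.88 with TBC1D3, 0.549 in MICAL1-M1 and 3.14 at DIV7, with intervals that all take in 1. With a window of 3 kb, 18 members were occupied with TBC1D3 (57.7%) and 20 at DIV7 (59.3%), 3 were gained at DIV7 (23.3%), and 5, 2 and 2 were lost with TBC1D3 (17.2%), in MICAL1-M1 (12.2%) and at DIV7 (17%). With starts only, 8 members were occupied at DIV7 (27.1%), and 2, 2 and 0 were gained with TBC1D3 (10.8%), in MICAL1-M1 (9.97%) and at DIV7 (11%). Counting any base of a peak, 2 were gained in MICAL1-M1 (11.1%). With lists of equal size, 7 were lost in MICAL1-M1 (17.9%), and the relative density was 0.725 with TBC1D3 and 0.768 at DIV7, both with intervals below 1, unlike with the whole lists. Without the first and last 1 kb of each gene it was 1.16 in the control, with an interval above 1. The TBC1D3 and DIV7 peaks rest on the fewest fragments, and a summit missing from a list is not shown to be absent; the part of depth in the missing summits was not tested.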
